A study of Mus musculus with 27 samples.

Results

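The genes followed here make, package, take up and break down GABA (gamma-aminobutyric acid), and they were measured in whole brains of DBA and C57 mice. They were chosen by gene symbol: every probe set that the platform annotation gives to Slc32a1, Gad1, Gad2, Slc6a13, Slc6a11 or Abat, on the arrays whose titles carry an animal number but no letter. Of the 6 genes, 4 had a probe set, with 1 set each. Slc6a11 and Abat matched none by symbol, gene identifier or older name, and were not analysed here. These 4 sets stood among 12488 probe sets in all, of which 9316 were bright enough to be tested, all 4 of them included.

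The DBA group was 4 untreated mice, which the labels write as DBA/2J and whose sex they do not give. The C57 group was 5 untreated males, written as C57BL/2. Both strains are inbred, all animals were 10 weeks old, and 5 ug of total RNA per animal was labelled for 1 array each. A probe set is a group of short oligonucleotides that together give 1 intensity for a transcript, on a linear scale without a unit. Each array had been scaled before deposit, so that its mean intensity without the lowest and highest 2% of values was 500.3. The labels number the animals and do not say how each brain was collected, so p-values below measure the spread between these 9 samples. Median intensity lay between 160 and 198, and any pair of arrays correlated at 0.945 to 0.970 across probe sets.

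GABA is the main inhibitory transmitter of the adult brain. It is made from glutamate by the 2 glutamic acid decarboxylases, which Gad1 and Gad2 encode, and is loaded into synaptic vesicles by the transporter that Slc32a1 encodes, which also loads glycine. After release it is cleared by plasma membrane transporters of the Slc6 family, and it is broken down in mitochondria by the transaminase that Abat encodes.

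Gad1 and Gad2 with Slc32a1 are genes of the same inhibitory neurons, and all 3 lie on chromosome 2. The 250 bases before their RefSeq starts are shown because Slc32a1 differed between the strains while no difference passed the test for either Gad gene. They come from the RefSeq table of build GRCm38.p6, on the + strand of the C57BL/6J reference, and show no DBA allele. Capitals mark matches to the letters of the TATA box (TATAAA), the CAAT box (CCAAT) and the GC box (GGGCGG) on either strand, and of the E box (CANNTG), which reads the same on both strands. No match overlaps another.
Slc32a1: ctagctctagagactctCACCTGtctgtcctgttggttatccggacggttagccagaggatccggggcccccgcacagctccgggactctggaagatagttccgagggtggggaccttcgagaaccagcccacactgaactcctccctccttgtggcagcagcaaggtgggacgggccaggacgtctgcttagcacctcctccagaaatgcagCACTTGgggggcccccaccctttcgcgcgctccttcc
Gad1: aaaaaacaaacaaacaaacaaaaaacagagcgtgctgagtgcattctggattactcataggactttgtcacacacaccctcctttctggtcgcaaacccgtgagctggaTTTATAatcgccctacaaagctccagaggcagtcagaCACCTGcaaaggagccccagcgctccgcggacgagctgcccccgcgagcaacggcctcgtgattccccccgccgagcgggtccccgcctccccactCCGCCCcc
Gad2: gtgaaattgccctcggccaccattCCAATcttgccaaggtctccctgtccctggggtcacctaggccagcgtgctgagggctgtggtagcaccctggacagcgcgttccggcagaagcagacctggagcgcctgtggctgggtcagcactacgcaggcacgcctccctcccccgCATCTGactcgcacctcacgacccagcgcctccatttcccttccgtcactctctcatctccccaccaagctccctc

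The Slc32a1 window, chr2:158610508-158610757, had 62.4% G and C, 12 CpG dinucleotides and 2 E boxes, at -233 and -37 from the start. It held none of the other 3 motifs. The Gad1 window, chr2:70561879-70562128, had 58% G and C, 17 CpG dinucleotides, and 1 match each to the TATA box at -141 and the GC box at -8, both on the other strand, and to the E box at -104. The Gad2 window, chr2:22622077-22622326, had 64% G and C and 13 CpG dinucleotides, with a CAAT box at -226 and an E box at -76. Over the 32851 windows of that length in the table, the median was 52.4% G and C and 6 CpG dinucleotides. The TATA box letters stood in 12.4% of those windows, the CAAT box in 33.8%, the GC box in 32.7% and the E box in 66.2%. The motif matches describe letters in the reference and were not tied to any measurement of binding.

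Slc32a1, the vesicular transporter gene, was lower in DBA brain. Its probe set, 101420_at, had intensities of 1652, 1611, 1511 and 1724 in DBA animals 1 to 4, against 3057, 5996, 4604, 7608 and 7767 in C57 animals 1 to 5. The DBA values lay close together and the C57 values spread widely, and the highest DBA value was well below the lowest C57 value, that of C57 animal 1. Geometric mean intensity was 1623 in DBA and 5490 in C57, a 3.38-fold lower level in DBA. On the log2 scale the difference was -1.76 ± 0.26 (DBA minus C57, ± standard error throughout), with a 95% interval of -2.33 to -1.19 and an adjusted p of 0.00416 by limma with Benjamini-Hochberg adjustment over all 9316 sets. In an exact 2-sided permutation test of the same difference, 2 of 126 assignments of the arrays were as large (p = 0.0159).

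Slc32a1 was the 1 called member of 4, beside 233 called sets of all 9316 tested (2.50%), 83 of them higher and 150 lower in DBA. It was also the 1 member whose strains did not overlap, which held for 601 sets (6.45%) of all tested. Among all sets it stood at rank 25 from the largest fall. The median log2 difference was 0.04 over the 4 members and 0.01 over all tested sets, and the median absolute difference was 0.14 and 0.15. Fewer cells of a type and less RNA per cell cannot be told apart in whole brain. Probe sequences were not at hand, so whether a strain sequence difference lies under the probes of the Slc32a1 set was not tested.

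The call of Slc32a1 was lost when RNA quality was added to the fit, a check chosen after the values had been seen. The array carries 5' and 3' control sets for beta-actin, Gapdh, pyruvate carboxylase and the transferrin receptor, and a higher log2 ratio of 3' to 5' intensity means that less of the 5' end was recovered. With the mean ratio of these 4 genes as a covariate, the Slc32a1 difference was -1.05 ± 0.22 (limma, unadjusted p = 0.00105, adjusted p = 0.0802), and 82 of all sets were called in place of 233. The mean ratio was 0.69, 0.61, 0.59 and 0.73 in DBA animals 1 to 4, against 0.64, 0.88, 0.84, 0.90 and 0.89 in C57 animals 1 to 5. The ratio was therefore lower in DBA than in C57 animals 2 to 5, and C57 animal 1 lay among the DBA animals.

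Within each strain the order of the animals in Slc32a1 was close to that in the mean ratio. The covariate fit was added after this likeness had been seen in C57, so the likeness is no separate observation. The DBA animals had the same order, 3, 2, 1 and 4 from low to high, in Slc32a1 and in the mean ratio. In C57 the lowest animal was 1 in both, followed by 3 and then 2, and animals 4 and 5 were the highest in both. The pyruvate carboxylase ratio alone also had the order 3, 2, 1 and 4 in DBA, and in C57 it had 1, 3, 4, 2 and 5. The other control genes had other orders in both strains. The beta-actin ratio was highest in C57 animal 3 (0.91), which had the second lowest Slc32a1 intensity of the C57 animals. C57 animal 1, whose ratio was within the DBA range, had a Slc32a1 intensity of 3057, against 1511 to 1724 in DBA. How much of the strain difference goes with RNA quality could not be told apart from strain in 9 arrays.

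Of the single control genes, Gapdh had log2 ratios of -0.44 to -0.32 in DBA and -0.29 to -0.19 in C57, without overlap (difference -0.12, exact permutation p = 0.0159, adjusted p = 0.0635 over the 4 control genes). Pyruvate carboxylase had 0.57 to 0.77 in DBA and 0.57 to 1.22 in C57 (difference -0.32, exact permutation p = 0.0556, adjusted p = 0.111). The differences of beta-actin (-0.13) and the transferrin receptor (-0.14) each had an adjusted p of 0.159 in the same exact permutation test. All 4 ratios were lower on average in DBA, and 0 of them passed after adjustment.

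**Figure D1:**
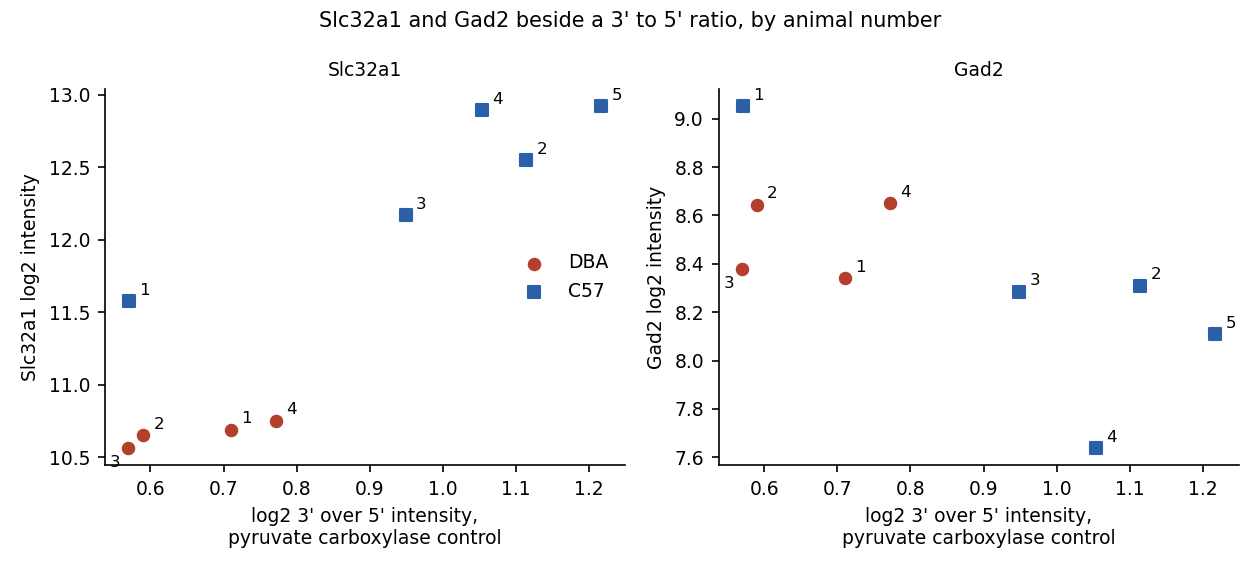
Log2 intensity of Slc32a1 (left) and Gad2 (right) against the log2 ratio of 3' to 5' intensity of the pyruvate carboxylase control, with 1 point per array, circles for 4 DBA and squares for 5 C57 animals, numbered by animal. C57 animal 1 has a ratio of 0.57, within the DBA range, and lies above the DBA animals in both panels. Among the control genes, only this ratio puts the DBA animals in the order of Slc32a1.

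The spread of Slc32a1 between animals of a strain was small in DBA and large in C57, a difference that was not tested. The SD of its log2 intensity was 0.08 in DBA (n = 4) and 0.56 in C57 (n = 5). Of 500 probe sets nearest to it in brightness, 99.6% had a smaller SD than Slc32a1 among the C57 animals, and 13.4% had a smaller one among the DBA animals. The C57 SD was 0.49 after quantile normalization and 0.69 after centring each array on its median, so the wide spread was there under each scaling tried.

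**Figure D2:**
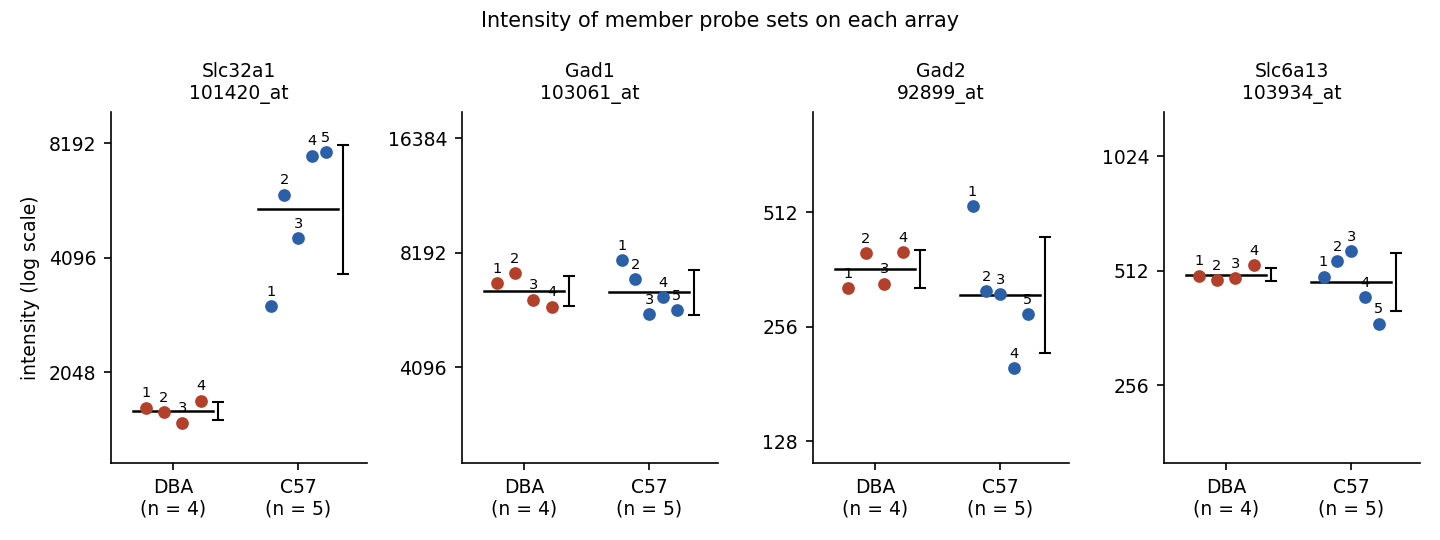
Intensity (log scale) of the 4 measured member probe sets on each array, 4 DBA left and 5 C57 right, numbered by animal; lines are geometric means and bars are 1 SD of log2 intensity. The strains do not overlap for Slc32a1 (1511 to 1724 in DBA, 3057 to 7767 in C57) and overlap for Gad1, Gad2 and Slc6a13.

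Gad1, which encodes the decarboxylase that makes most of the brain's GABA, had nearly the same level in both strains. Its set, 103061_at, had 6816, 7222, 6165 and 5913 in DBA animals 1 to 4, against 7822, 6969, 5640, 6261 and 5790 in C57 animals 1 to 5. The DBA values all lay within the C57 range. Geometric means were 6509 in DBA and 6448 in C57, and the log2 difference was 0.01 ± 0.13 (95% interval -0.27 to 0.30, limma adjusted p = 0.981). The interval for Gad1 does not reach the size of the Slc32a1 difference in either direction. With the mean 3' to 5' ratio as a covariate the Gad1 difference was -0.20 ± 0.17 (limma adjusted p = 0.755).

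Gad2, whose enzyme sits at nerve terminals and makes GABA for vesicle release, varied more between C57 animals than between the strains. Its set, 92899_at, had 324, 400, 332 and 402 in DBA animals 1 to 4, against 531, 317, 312, 199 and 276 in C57 animals 1 to 5. C57 animal 1 was the highest of all 9 and C57 animal 4 the lowest, with the DBA animals between them. Geometric means were 363 in DBA and 311 in C57, with a log2 difference of 0.22 ± 0.24 (95% interval -0.32 to 0.76, limma adjusted p = 0.808). The SD of log2 intensity was 0.17 in DBA and 0.51 in C57, and 95.8% of the 500 sets of like brightness had a smaller SD among the C57 animals. C57 animal 1, the highest for Gad2, was the lowest C57 animal for Slc32a1 and for the mean 3' to 5' ratio. From high to low the C57 order in Gad2 was 1, 2, 3, 5 and 4. From low to high the mean ratio had 1, 3, 2, 5 and 4, nearly the same order. In DBA the orders were 4, 2, 3 and 1 in Gad2 and 3, 2, 1 and 4 in the ratio, which were not alike. These orders were compared after the values had been seen. With the mean 3' to 5' ratio as a covariate the Gad2 difference was -0.34 ± 0.26, the other direction (limma adjusted p = 0.736).

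Slc6a13 encodes a GABA transporter found mainly at the meninges and blood vessels, which also carries taurine. Its set, 103934_at, had 497, 484, 489 and 529 in DBA animals 1 to 4, against 494, 543, 577, 437 and 372 in C57 animals 1 to 5. The DBA animals were close to one another and lay inside the C57 range. Geometric means were 499 in DBA and 479 in C57, with a log2 difference of 0.06 ± 0.14 (95% interval -0.24 to 0.37, limma adjusted p = 0.915). The SD of log2 intensity was 0.06 in DBA and 0.25 in C57. In all 4 members the SD was larger in C57 than in DBA as deposited and after quantile normalization; after median centring Gad1 had an SD of 0.19 in both strains.

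Whether Slc32a1 moved differently from the other members was tested on the log2 difference between the 2 probe sets within each array, a set of 3 comparisons chosen after the values had been seen. Slc32a1 minus Gad1 averaged -2.004 in DBA and -0.23 in C57, a difference of -1.77 (exact 2-sided permutation p = 0.0159, unadjusted). Slc32a1 minus Gad2 averaged 2.16 in DBA and 4.14 in C57, a difference of -1.98 (exact permutation p = 0.0159), with p = 0.0536 in the same test without DBA animal 2, 3 or 4. Slc32a1 minus Slc6a13 averaged 1.70 in DBA and 3.52 in C57, a difference of -1.82 (exact permutation p = 0.0159). These within-array differences compare strains and do not give the level of one gene relative to another. Slc32a1 was the called member and the others differed little, so they largely restate its own strain difference. They were computed without the 3' to 5' ratio. With that covariate in the limma fit, the differences were -1.05 for Slc32a1, -0.20 for Gad1, -0.34 for Gad2 and 0.002 for Slc6a13.

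The rest of the GABA pathway was followed through lists of related genes, each gene by its brightest tested probe set. For reading the counts below, 1134 of all 9316 tested sets (12.2%) had an unadjusted limma p under 0.05. Of 9 other GABA transporter and shunt genes, 6 were tested, with 0 higher and 1 lower in DBA and a median log2 difference of 0.14. The lower gene was Aldh9a1, whose enzyme can make GABA from a putrescine product. Its intensities ran from 43.2 to 83.4 in DBA and from 279 to 416 in C57, a log2 difference of -2.49 ± 0.23 (limma adjusted p = 0.000244). The strains were far apart at this set, 96243_f_at, whose suffix marks sets that may match a family of similar sequences. Akr7a5, which reduces the succinic semialdehyde left by GABA breakdown, had 887 to 1386 in DBA and 586 to 962 in C57 and did not pass (0.58 ± 0.18, adjusted p = 0.159). Slc6a12, a betaine and GABA transporter gene, lay near the brightness limit of 35.4, with 8.3 to 70.4 in DBA and 23.2 to 70.0 in C57.

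Genes that supply glutamate for GABA synthesis included 8 tested of 15 listed, with 0 called and 3 at an unadjusted limma p under 0.05. The smallest p was that of Glud1, glutamate dehydrogenase, with 2290 to 2737 in DBA and 1921 to 2110 in C57 (0.34 ± 0.09, adjusted p = 0.120). Glul, the glutamine synthetase of astrocytes, had 1197 to 1462 in DBA and 1508 to 2491 in C57 (-0.54 ± 0.16, adjusted p = 0.140). At these sets the strains did not overlap, in opposite directions for Glud1 and Glul. The other tested Glul set differed by -0.01 ± 0.22 and the other Glud1 set by 0.83 ± 0.34, neither called. The median of the list was -0.02.

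Receivers of the GABA signal were 13 tested genes of 25 listed, the subunits of GABA receptors and their postsynaptic partners. Limma called 0 of them and 1 had an unadjusted p under 0.05, with a median of 0.01. Gabrg3, a gamma subunit gene of the GABA-A receptor, had 66.9 to 91.8 in DBA and 40.7 to 71.3 in C57, which overlapped (0.59 ± 0.19, adjusted p = 0.190). Gabra6, the subunit gene of cerebellar granule cells, differed by 0.32 ± 0.15 at its brighter set and by -0.42 ± 0.20 at the other (adjusted p = 0.433 and 0.445).

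Glycine is the second cargo of the Slc32a1 transporter, and 4 of 7 listed genes of glycine neurons and receptors were tested. Limma called 0, with 0 at an unadjusted p under 0.05 and a median of 0.09. Glra1, a glycine receptor subunit gene, differed by 0.24 ± 0.20 and Slc6a9, a glycine transporter gene, by 0.14 ± 0.12. Of 6 other vesicular transmitter transporters, 1 had a probe set and 0 were tested: Slc18a3, which loads acetylcholine, lay below the brightness limit with 13.2 to 19.7 in DBA and 12.0 to 19.1 in C57. Among 11 tested synaptic vesicle protein genes, 0 were called, 2 had an unadjusted limma p under 0.05 (Syn2 and Vamp2), and the median was 0.13.

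**Figure D3:**
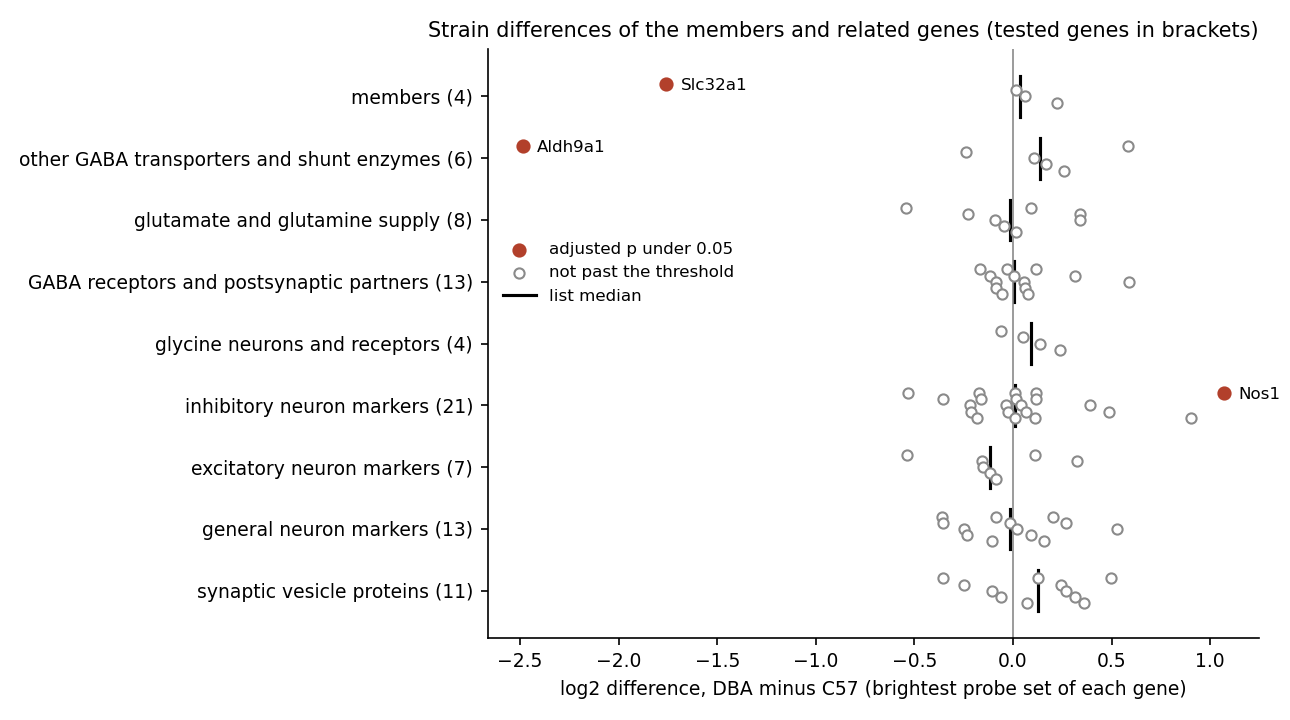
Log2 difference (DBA minus C57) of each tested gene, by its brightest probe set, for the members and 8 lists of related genes; filled points passed an adjusted p under 0.05, open points did not, and bars are list medians. Slc32a1 (-1.76) and Aldh9a1 (-2.49) lie far left and Nos1 (1.07) far right of list medians that run from -0.12 to 0.14.

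Markers of inhibitory neurons, the cells that express Gad1, Gad2 and Slc32a1, were 21 tested genes of 28 listed. By limma 1 was higher in DBA and 0 were lower, with 3 at an unadjusted p under 0.05 and a median of 0.01. The higher gene was Nos1, the nitric oxide synthase of a subset of interneurons, with 191 to 280 in DBA and 77.2 to 157 in C57 (1.07 ± 0.21, adjusted p = 0.0269). Of the 21 differences 12 were above 0 and 9 below. Among markers of interneuron classes that did not pass, Pvalb differed by 0.12 ± 0.14, Sst by 0.01 ± 0.13, Npy by 0.07 ± 0.16, Vip by 0.04 ± 0.24 and Calb1 by 0.12 ± 0.11. Calb2 differed by -0.21 ± 0.10, Cck by -0.22 ± 0.11, Htr3a by -0.18 ± 0.17 and Reln by -0.17 ± 0.16, which also did not pass. Lhx6, a transcription factor of interneurons, differed by -0.03 ± 0.18 and Dlx1, another, by -0.53 ± 0.41. Dlx2 differed by -0.35 ± 0.29, Dlx5 by -0.16 ± 0.18, Dlx6 by 0.39 ± 0.39 and Lhx1 by 0.01 ± 0.18. Besides Nos1, Lhx5 (0.90 ± 0.36) and Maf (0.48 ± 0.21) had an unadjusted limma p under 0.05. Both were higher in DBA and not called, and Lhx5 was dim, with a mean of 32.5 in C57. The summed intensity of the tested inhibitory markers was 26474 to 29626 in DBA and 27008 to 31676 in C57, so the strains overlapped. Pvalb, Cck and Sst were the brightest and weigh most in this sum, which says little about the dimmer markers.

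Markers of other cell types were counted in the same way. Of 7 excitatory and 13 general neuron markers tested, 0 were called, with 1 and 5 at an unadjusted limma p under 0.05 and medians of -0.12 and -0.02. Of 11 astrocyte and 7 oligodendrocyte markers 0 were called by their brightest sets, with 3 each at an unadjusted p under 0.05 and medians of -0.16 and -0.18; Mobp was called lower at a dimmer set. Of 10 microglia markers C1qb (-0.85 ± 0.12) and C1qc (-0.65 ± 0.13) were called lower. With them, Ctss made 3 at an unadjusted limma p under 0.05, and it was higher in DBA (0.32 ± 0.12). Of the 10 differences 7 were below 0 and 3 above, with a median of -0.13. Of 15 meninges and vessel markers, the setting of Slc6a13, 0 were called and 3 had an unadjusted limma p under 0.05. Summed over the 15 genes, intensity was 19209 to 24233 in DBA and 20114 to 25105 in C57, with Ptgds the brightest. The summed intensity of the oligodendrocyte markers was 21370 to 25346 in DBA and 21429 to 29341 in C57, with Mbp and Mobp the brightest. At an unadjusted limma p under 0.05, Mog (-0.62), Mag (-0.57) and Cldn11 (-0.59) were all lower in DBA. Of the astrocyte markers, Glul (-0.54) and Ntsr2 (-0.39) were lower and Slc1a2 (0.34) higher. Of the meninges and vessel markers, Aldh1a2 (1.19), Dcn (0.42) and Igf2 (0.36) were higher, while dimmer sets of Col1a1 (-0.62) and Col1a2 (-0.52) were lower.

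Regions rich in GABA neurons were checked next. Limma called 0 of 9 cerebellum, 3 striatum, 7 hypothalamus and 3 olfactory bulb markers, with 1, 0, 1 and 0 at an unadjusted p under 0.05. The medians of these lists were 0.12, -0.06, 0.03 and -0.12. The part of dissection or cell content in the Slc32a1 difference was not tested beyond these values. Because the sex of the DBA animals is not given, sex-linked genes were read as well. Eif2s3y, on the Y chromosome, had 296 to 338 in DBA and 249 to 384 in C57, by an f_at set. Uty, also on the Y chromosome, had 62.7 to 102 in DBA and 57.6 to 173 in C57. Its log2 difference was -0.63 ± 0.31 (limma adjusted p = 0.461), lower in DBA and not called. Kdm5d, another Y gene, was too dim to be tested, with 3.9 to 32.5 in DBA and 6.5 to 44.3 in C57. Xist, the RNA of the inactive X chromosome, had a median of 22.7 in DBA and 27.8 in C57, both below the brightness limit. Of the 2 tested sex-linked genes limma called 0, also at an unadjusted p under 0.05.

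Neighbouring genes along the chromosome were compared through the RefSeq gene order. The nearest tested gene before Slc32a1 was Snhg11, a long noncoding RNA gene that hosts a small nucleolar RNA and is abundant in neurons. Its only set, 97752_at, had 248, 247, 385 and 284 in DBA animals 1 to 4, against 1175, 1210, 989, 1243 and 1011 in C57 animals 1 to 5. The strains did not overlap, and the C57 animals were close together, unlike at Slc32a1. Geometric means were 286 in DBA and 1121 in C57, a log2 difference of -1.97 ± 0.15 (limma adjusted p = 7.27e-05). With the mean 3' to 5' ratio as a covariate, Snhg11 stayed past the threshold (-2.07, adjusted p = 0.00474).

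Between Snhg11 and Slc32a1 the RefSeq table lists 7 genes, 3 of them protein coding (Ralgapb, Adig and Arhgap40), and 0 were tested. The nearest tested gene after Slc32a1, the topoisomerase gene Top1, differed by -0.08 ± 0.19. Lbp and Tgm2 before Snhg11 differed by 0.29 ± 0.21 and -0.30 ± 0.23, and Plcg1 and Srsf6 after Top1 by 0.04 ± 0.23 and -0.06 ± 0.19. None of these 5 genes passed the test.

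The neighbours of the other members showed no called difference. Gad1 lies between Ubr3 (-0.31 ± 0.19) and Gorasp2 (0.08 ± 0.17), and Gad2 between Arhgap21 (-0.12 ± 0.15) and Apbb1ip (-0.20 ± 0.19). Slc6a13, on chromosome 6, lies between Tuba8 (0.00 ± 0.16) and Slc6a12 (-0.24 ± 0.59). The largest neighbouring difference there was that of A2m, -0.49 ± 0.16 (adjusted p = 0.209).

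**Figure D4:**
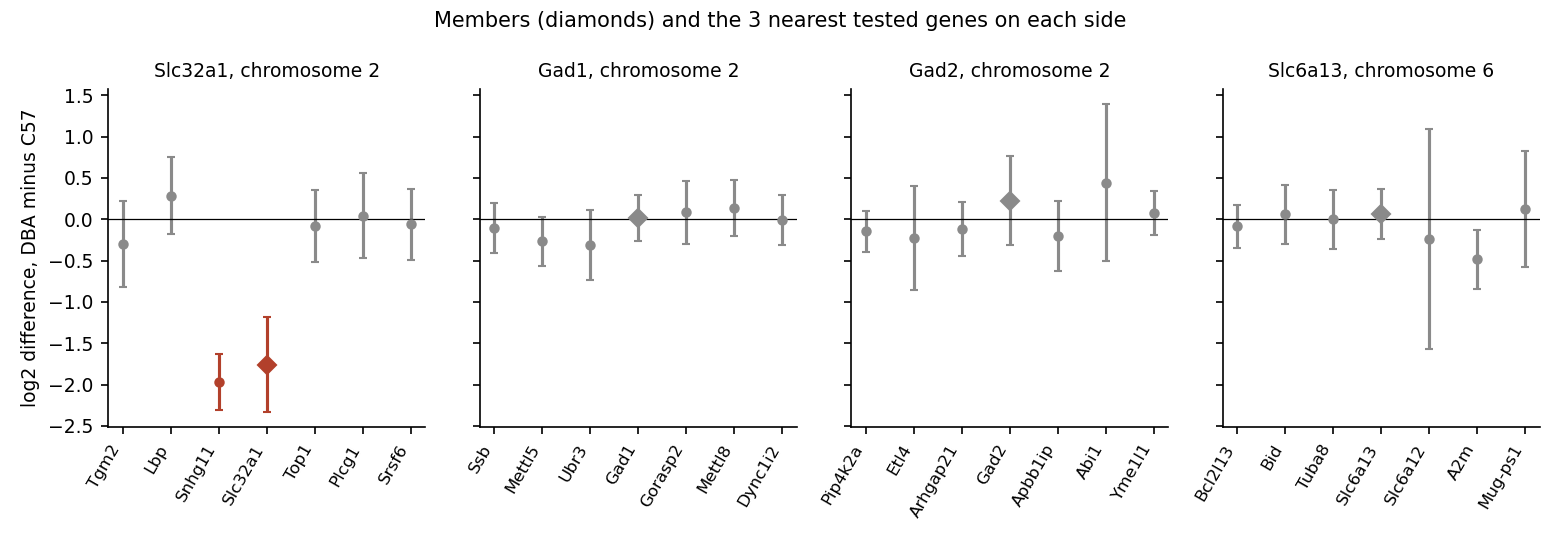
Log2 difference (DBA minus C57) with its 95% interval for each measured member (diamond) and the 3 nearest tested genes on each side in RefSeq order, not to scale; red marks an adjusted p under 0.05. Snhg11 (-1.97) and Slc32a1 (-1.76) are the 2 genes shown that passed, and the other 26 did not.

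The genes most like each member were found by the root mean square difference of centred log2 intensities over the 9 arrays, among tested sets with 1 symbol. Nearest to Slc32a1 were Srp9, a subunit of the signal recognition particle (0.310), the peroxiredoxin gene Prdx2 at set 99608_at (0.320) and the peroxisomal transporter gene Abcd3 (0.331). All 3 were called lower in DBA, with log2 differences of -1.78, -1.85 and -1.27, and Snhg11 came at rank 15 (0.453). Since strain makes most of the Slc32a1 profile, this likeness restates that difference. Nearest to Gad1 were Sgpl1 (0.0752), Trim46 (0.0764) and Bet1l (0.0901), none called. Nearest to Gad2 were Kif1b (0.107), Nr3c1 (0.132) and Lin7c (0.152), which shared its high value in C57 animal 1 and its low value in C57 animal 4. Nearest to Slc6a13 were Acp1 (0.0695), Shkbp1 (0.0723) and Fen1 (0.0832), also none called.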

How the data were processed

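The authors deposited a table of array intensities, on a linear scale and already scaled per array; how the probes were scanned, summarised and normalized is not given in the sources used here. Groups came from the array titles (4 DBA, 5 C57). A further 18 arrays, with a letter in the title, were not analysed here. Of the probe sets, 10855 had 1 symbol in the platform annotation, 396 had several and 1237 had none. The RefSeq table of GRCm38.p6 updated 10839 symbols by gene identifier, for 8252 named genes.

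Intensities below the 1st percentile of positive values (1.70) were raised to it (0.978% of values), and log2 was taken. The 66 control sets and the dimmest 25% of the others (mean intensity under 35.4) were left out. The strains were compared on 9316 sets by a 2-sided limma fit (version 3.58.1 in R 4.3.3, by lmFit and then eBayes), at a Benjamini-Hochberg adjusted p under 0.05. The fit was also run on simulated arrays with the same SD in both strains. These had neither the unequal spread of Slc32a1 nor differences in RNA quality, so they do not cover its case. Single values were compared by exact permutation of the array labels. Folds are ratios of geometric means. Arrays give no read depth, and their number limits the precision. Figures used matplotlib 3.10.9.

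The members and lists were chosen with earlier results of these data known. Named genes are all measured members and the called genes of each list or, with none called, the 2 with the smallest p. The 3 genes most like each member and the nearest tested neighbours are named as well. The interneuron markers other than Nos1, the genes Akr7a5 and Mobp and the farther neighbours were named after their values were seen. The further glial, meninges and vessel markers and the Y gene Kdm5d were also named after that. For the marker lists of neurons, glia, vessels and regions the results were mostly given as counts. Animal numbers did not pair the strains: same-numbered arrays had correlations of deviations of -0.10, -0.02, -0.01 and -0.17. Alternatives were other scaling, floors, filters and variance models, the number as a block, 1 set per gene, a stricter threshold, leaving out each animal, and, added after seeing the data, RNA quality as a covariate.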

Additional observations from a re-analysis of the deposited data

Results flagged for a closer look

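One value stood apart from the rest of its group. In DBA animal 3 the Gapdh ratio of 3' to 5' intensity was the lowest of the 4 DBA animals, and its gap to the next animal took a share of 0.843 of the range of that group, above the limit of 0.829 for 4 samples. Chance flags about 1 in 20 groups, and 16 groups were examined. The Slc32a1 intensity of DBA animal 3, 1511, was the lowest of the 4 DBA animals, and leaving out this animal did not change any call among the members.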

How the results depend on the processing

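Slc32a1 was lower in DBA in all 20 limma alternatives and past the threshold in 19 of them. The alternative with an adjusted p under 0.01 is the main fit at a stricter threshold, so its direction was fixed. Its exact permutation p of 0.0159 is unadjusted; an adjustment over the 4 members, computed first and dropped after its result was seen, did not pass. Without 1 animal its log2 difference was lowest at -1.97 when C57 animal 1 was left out and highest at -1.63 when C57 animal 5 was, with limma adjusted p of 0.000499 to 0.0187. The exception, chosen after seeing the data, was the mean 3' to 5' ratio as a covariate, which gave -1.05 (limma adjusted p = 0.0802) for Slc32a1, 0 of 4 members called (1 at an unadjusted limma p under 0.05) and 82 sets called in all. With the replicate block, the animal number as a term, Slc32a1 was at -1.63 (limma adjusted p = 0.0466), and 73 sets were called over all; this fit leaves C57 animal 5 without a partner, so its differences equal those without that animal. The numbers do not pair the animals, and no DBA array correlated best with its own number. Of all sets 154 of 6864 were called with 1 set per gene, which tests fewer features, and 150 at an adjusted p under 0.01. With 1 animal left out 184 to 228 sets were called. Gad1, Gad2 and Slc6a13 were called under none of the alternatives; without 1 animal their differences ran from -0.04 to 0.08, from 0.06 to 0.42 and from -0.03 to 0.13. Without 1 animal, the difference of Slc32a1 minus Gad2 ran from -2.39 to -1.70, with exact permutation p of 0.0286 to 0.0536. Those of Snhg11 ran from -2.11 to -1.90, all called. The cause of the changes under the covariate was not tested. Each gene rests on 1 probe set, detection calls and background values were not used, and 9 arrays limit the precision.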

Other observations

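Among the C57 animals alone, the order of Slc32a1 was set beside that of the other named genes, a choice made after its values were seen. Over these 5 arrays the nearest profile was that of Gm1673 (100465_i_at, root mean square difference 0.0839), with intensities of 678, 1354, 1133, 1605 and 1627 in C57 animals 1 to 5. Next came Atp5e, an ATP synthase subunit gene (93596_i_at, 0.0979), with 873, 2065, 1563, 2551 and 2547. Both had their lowest value in C57 animal 1 and their highest values in C57 animals 4 and 5, as Slc32a1 did. Their differences between DBA and C57 were 0.20 and 0.20 on the log2 scale, with limma adjusted p of 0.834 and 0.867. Snhg11, the neighbour of Slc32a1 that was also lower in DBA, ranked 2951 by the same measure, so the spread of Slc32a1 among C57 animals was not seen at Snhg11.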
